A study of Mus musculus with 19 samples.

Results

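The cytosolic ribosomal protein genes encode the proteins of the 40S and 60S subunits of the ribosome that works in the cytosol. They were taken as the protein-coding genes with a symbol made of Rpl or Rps and a number, with or without a closing letter, together with *Rplp0*, *Rplp1*, *Rplp2* and *Rpsa*. This gave 83 of the 27299 genes in the table, which holds 16070 protein-coding genes. Of the 83 genes, 31 belonged to the 40S subunit, 46 to the 60S subunit and 6 were paralogs, that is, second copies that resemble a core gene (*Rpl3l*, *Rpl7l1*, *Rpl10l*, *Rpl22l1*, *Rpl39l* and *Rps27l*). Another 5 genes with a matching symbol were not protein-coding and were left out. Of the 83 genes, 80 had a mean of at least 10 normalized counts over the 12 samples.

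A ribosome holds a single copy of nearly every one of these proteins, so cells make them in a fixed ratio from genes on many chromosomes. Their mRNAs are among the most abundant of a cell, are short, and classically begin with a cytosine and a run of pyrimidines, the 5′ terminal oligopyrimidine or TOP motif, through which the kinase complex mTORC1 and the RNA-binding protein LARP1 control their translation and stability. Microglia are the resident macrophages of the retina.

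The study compared retinal microglia of lasered mice with those of unlasered mice by bulk RNA-seq, to describe the cells during experimental choroidal neovascularization (CNV), the growth of vessels from the choroid into the retina. In the laser group, 6 argon laser burns per eye were set and cells were taken at day 3 (CNV d3). The control group was not lasered. There were 6 laser and 6 control samples, all from mice 8 weeks old. The labels give the strain of both groups as C57BL/6J, while the methods name Cx3cr1 GFP/+ mice on that background, in which 1 copy of the gene for the fractalkine receptor carries green fluorescent protein in lasered and unlasered mice alike. Cells were sorted by flow cytometry. The methods give the gate as CD45lo CD11b+ CX3CR1+ Ly6C- Ly6G-, while the labels write CD45+ in place of CD45lo. Macrophages derived from monocytes can carry CD11b and CX3CR1 too, and the low CD45 and the lack of Ly6C are the steps of the gate directed against such cells. Whether these steps removed all of them was not tested. The labels do not say whether samples came from separate mice, so the p-values measure the spread between samples, which may in part be technical.

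Each value is a normalized count, a number of reads divided by a factor for the depth of its sample. The control samples held 10963178 to 22335233 counted reads and the laser samples 23532260 to 29523018, so every control sample was shallower than every laser sample. The labels list 2 parts for all control samples and laser replicate 4 and a single entry for the other laser samples, whereas the methods state that 2 alignment files, from 2 flow cells, were merged for every sample. Microglia markers were high throughout, with a summed level over 15 markers of 1536598 to 1696804 normalized counts in control and 880510 to 1290105 in laser. Marker lists of other cell types are given further below.

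The starts of the genes are shown first, because the pyrimidine run is the sequence feature for which this gene family is known and the rule that chose the genes did not use it. RefSeq starts on GRCm38.p6 were at hand for 63 of the 83 genes. The motif searched was a C at the first transcribed base followed by at least 4 bases that are each C or T, on the strand of the gene. It was present at an annotated start of 13 of the 63 genes (20.6%), compared with 813 of 27025 genes (3.01%) in the whole table of starts. Allowing the run to begin within 5 bases of the start gave 29 of 63 (46.0%), compared with 5718 of 27025 (21.2%). Each sequence below runs from 20 bases before the start to 20 bases from it on, 5′ to 3′ on the strand of the gene, with the pyrimidine run in capitals. The first 6 hold the run at the start, the last 2 do not, although in *Rpl22l1* such a run begins within 5 bases of the start.
*Rpl15* (60S, chr14:18270967-18271006, minus strand): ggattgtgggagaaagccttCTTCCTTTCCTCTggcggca
*Rpl35* (60S, chr2:39005112-39005151, minus strand): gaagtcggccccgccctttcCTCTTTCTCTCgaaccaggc
*Rps18* (40S, chr17:33955646-33955685, minus strand): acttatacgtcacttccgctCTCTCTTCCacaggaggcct
*Rps6* (40S, chr4:86857348-86857387, minus strand): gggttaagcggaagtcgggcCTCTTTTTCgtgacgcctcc
*Rplp2* (60S, chr7:141447631-141447670, plus strand): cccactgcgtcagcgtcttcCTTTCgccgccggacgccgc
*Rps27* (40S, chr3:90213629-90213668, minus strand): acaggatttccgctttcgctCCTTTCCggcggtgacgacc
*Rpsa* (40S, chr9:120127746-120127785, plus strand): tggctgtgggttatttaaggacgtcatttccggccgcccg
*Rpl22l1* (paralog, chr3:28805488-28805527, plus strand): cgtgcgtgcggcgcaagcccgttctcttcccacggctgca
The median change after laser was the same with and without the run. The 13 genes with it had a median log2 fold change of 0.69, with 8 called higher, and the 50 genes without it had a median of 0.69, with 38 called higher. Among the 8 genes printed, the log2 fold change was 1.10 for *Rpl15*, 0.90 for *Rpl35*, 0.83 for *Rps18*, 0.69 for *Rps6*, 0.40 for *Rplp2* and 0.16 for *Rps27* with the run, and 1.31 for *Rpsa* and 1.19 for *Rpl22l1* without it, both among the larger rises of the family. The annotated start is 1 base, and transcripts may begin at others nearby, so no match says only that these letters are not at that base.

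Most ribosomal protein genes were higher in microglia of lasered retinas, by an amount that was modest for each gene and shared by the family. By limma on log2(normalized counts + 1), 62 of the 83 genes rose at an adjusted p under 0.05, compared with 8.29% of all genes, and 0 fell, compared with 4.57% of all genes. At an unadjusted p under 0.05, 70 were higher (16.3% of all genes) and 0 lower (8.9%). edgeR called 63 higher (7.15% of all genes) and 0 lower (4.33%), limma voom 66 higher (9.29%) and 0 lower (5.77%), and DESeq2 67 higher (14.5% of the genes it tested) and 0 lower (12.6%). Among protein-coding genes with a mean of at least 100, the abundance class of nearly all members, 15.6% were called higher and 9.93% lower. The median log2 fold change of the 83 genes was 0.69, with quartiles of 0.47 and 0.85, beside 0.15 over all genes and 0.07 over protein-coding genes with a mean of at least 100. The called genes lay between 0.44 and 1.31, and 8 of them reached 1. No member passed the fold threshold of 1.5 (log2) that the study set for its differentially expressed genes, which 3.91% of all genes passed upwards and 1.07% downwards. The laser and control samples did not overlap for 40 of the 83 genes, all with the laser samples above, compared with 4.64% of all genes; for 2.83% of all genes the laser samples lay below. Leaving out each sample in turn kept 54 of the 62 calls in all 12 fits. In bulk samples a change in the mix of cells and a change of RNA per cell cannot be told apart.

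**Figure D1:**
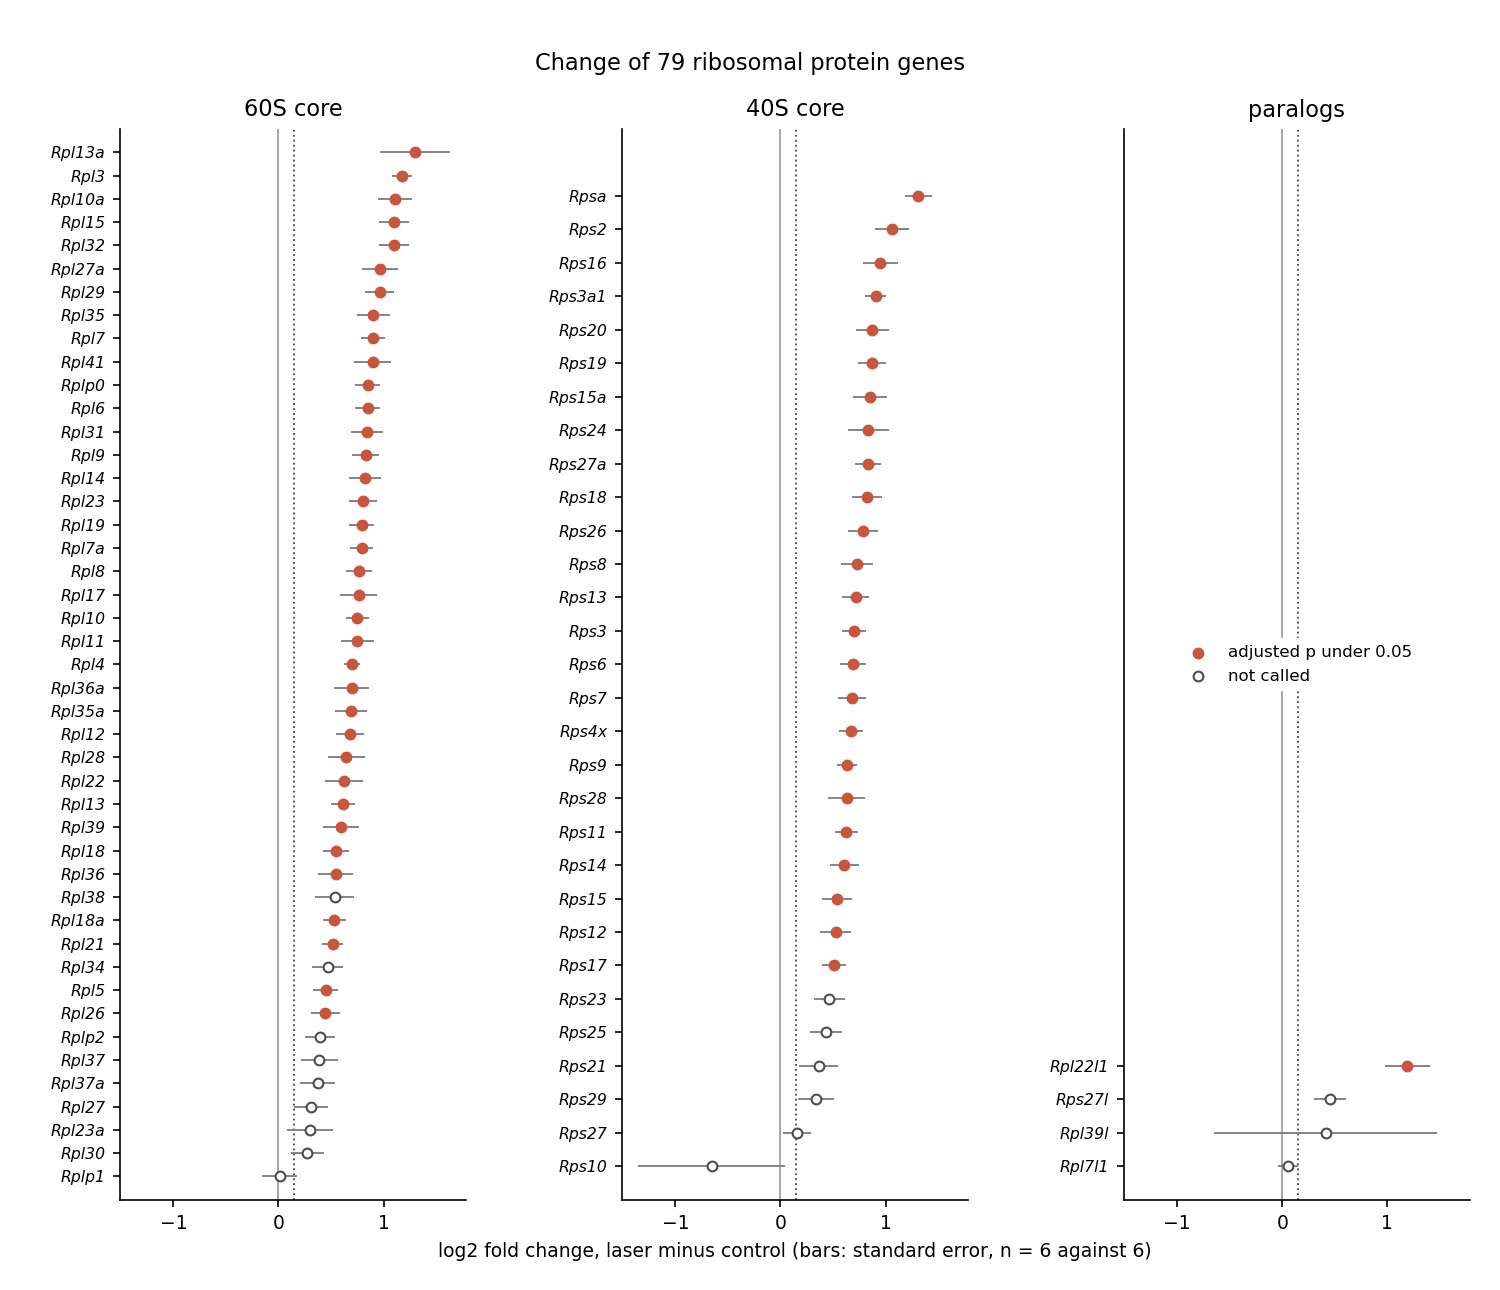
Log2 fold change (laser minus control, horizontal axis) of 79 of the 80 ribosomal protein genes with a mean of at least 10 in either group, by subunit; points are estimates, bars standard errors (n = 6 against 6), filled points passed an adjusted p under 0.05, and the dotted line marks the median of all genes at 0.15. Nearly all points lie right of that line, between 0.44 and 1.31 for the called genes, while *Rplp1* and *Rpl7l1* sit near 0.

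The family took a larger share of the reads after laser. In control samples the 83 genes held 0.527% of counted reads at the lowest, 0.610% at the median and 0.802% at the highest, and in laser samples 0.874%, 1.04% and 1.14%. Every laser sample lay above every control sample, and the mean rose from 0.621% ± 0.0984 to 1.02% ± 0.116 (SD, n = 6 each), a ratio of 1.64. The lowest laser sample was replicate 4. The highest control sample was replicate 3. Its core genes stood apart from those of the other control samples: 49 of the 77 core genes were above their own mean over the 12 samples there, whereas in each of the other 5 control samples 1 to 3 were, and in the laser samples 60 to 76 were. Without control replicate 3, 70 members were called higher and the median log2 fold change was 0.77. Photoreceptor markers summed to 7585 normalized counts in control replicate 3 and to 840 to 2006 in the other control samples. In the laser samples they summed to 672 to 13517, with the highest sum in replicate 4, which had the lowest share of reads on the family. Laser replicate 6, with a sum of 11498, had a share of 1.10%, and laser replicate 1, with the lowest sum, had 0.907%. The part of these markers in the ribosomal protein levels was not tested.

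**Figure D2:**
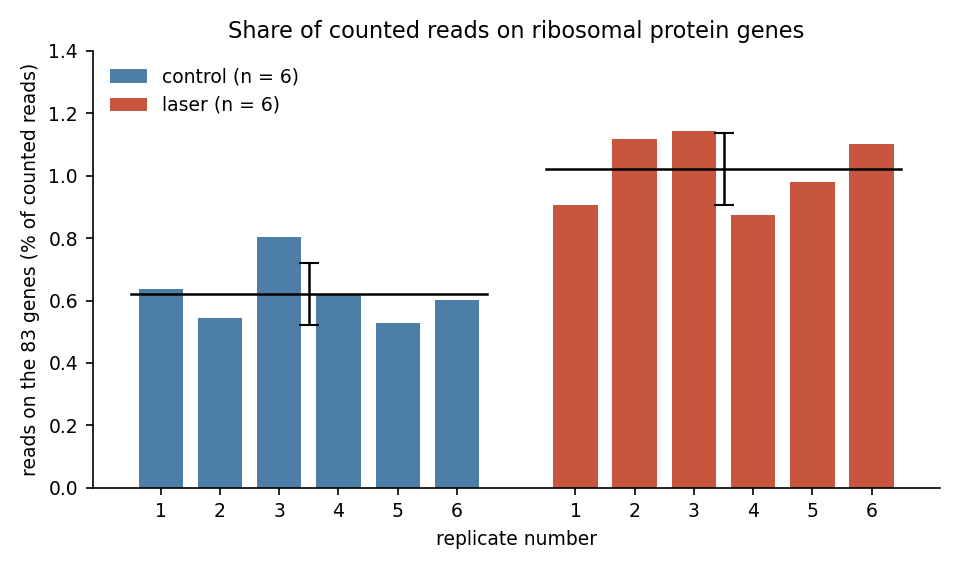
Percent of counted reads on the 83 ribosomal protein genes (vertical axis) in each of the 6 control and 6 laser samples (horizontal axis, replicate number); lines are group means and error bars SD. The laser bars stand between 0.874% and 1.14%, above the control bars, of which replicate 3 is the highest at 0.802%.

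Both subunits rose. Of the 31 core genes of the 40S subunit, 25 rose, with a median log2 fold change of 0.69, and of the 46 core genes of the 60S subunit, 36 rose, with a median of 0.70. The log2 ratio of 40S to 60S reads was -0.38 ± 0.0354 in control and -0.40 ± 0.0305 in laser (SD, n = 6 each), so the groups differed by less than the spread between replicates.

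Per kilobase of transcript, the genes differed more among themselves than between the groups. Over the 74 core genes with a control mean of at least 100, levels in control ran from 296 to 7614 normalized counts per kilobase with a median of 2118, and in laser from 367 to 13559 with a median of 3237. The order of the genes was nearly kept, with a rank correlation of 0.97 across these genes, which share libraries and lengths. *Rps29*, a small zinc-binding protein of the 40S head, was highest in control at 7614 ± 1879 normalized counts per kilobase (SD, n = 6). *Rps9* followed at 6459 ± 815, *Rpl32* at 6371 ± 1305, *Rps27* at 6367 ± 1296 and *Rps14* at 5806 ± 1421. The gap from each of these 5 genes to the next was smaller than the SD of the higher one. The genes were measured in the same samples, so this SD is not the spread of their difference, and the order was not tested. In laser *Rpl32* led with 13559 ± 2215 normalized counts per kilobase, followed by *Rps9* with 9977 ± 977 and *Rps29* with 9573 ± 1902. The lengths of *Rps20* (3706 bases) and *Rpl5* (2045 bases) are those of long annotated transcripts, which lowers their level per kilobase.

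In the 60S subunit, *Rpl3*, a protein near the site of peptide bond formation, had the smallest adjusted p of the family. Its normalized counts were 3068 at the lowest, 3275 at the median and 4401 at the highest in control, and 6767, 7732 and 8156 in laser. The groups were far apart, with control replicate 3 the high control value. The log2 fold change was 1.18 ± 0.09 (SE), a fold of 2.26, at a limma adjusted p of 5.15e-06. *Rpl10a*, the protein of the mobile L1 stalk beside the exit site for tRNA, measured 459, 649.7 and 849 in control and 1146, 1309 and 1498 in laser. Its log2 fold change was 1.11 ± 0.16 (SE; limma adjusted p 0.000378), again with no overlap.

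*Rpl15*, a structural protein within the large subunit, had 681, 841 and 1205 normalized counts (lowest, median and highest) in control and 1548, 1931 and 2079 in laser. *Rpl32* had 2577, 3185 and 4314 in control and 5607, 7281 and 8286 in laser. Both genes rose without overlap, with a log2 fold change of 1.10 ± 0.15 and 1.10 ± 0.14 (SE; limma adjusted p 0.000213 and 0.000166). *Rpl27a* and *Rpl29* rose by 0.97 ± 0.17 and 0.96 ± 0.14 (log2, SE), also without overlap. *Rpl13a*, known apart from the ribosome for silencing inflammatory mRNAs once it is released in interferon-treated myeloid cells, was a weakly covered member. It had 39.5, 72.2 and 129 normalized counts in control and 133, 181 and 244 in laser, a log2 fold change of 1.30 ± 0.33 (SE; limma adjusted p 0.0174). Of the exon bases of *Rpl13a*, 35.4% also lie in exons of other genes, so part of its reads may have gone uncounted or been split, and its level is uncertain. *Rpl4*, named after its values were seen, was the core gene with the smallest standard error, rising by 0.70 ± 0.08 (limma adjusted p 4.82e-05).

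Of the 4 proteins of the ribosomal stalk, which recruits the elongation factors, 2 rose. *Rplp0*, its base, had 3411, 4239 and 5633 normalized counts in control and 6214, 7626 and 8999 in laser, without overlap, and rose by 0.85 ± 0.12 (log2, SE; limma adjusted p 0.000372). *Rpl12*, which sits beside that base, rose by 0.68 ± 0.14 (limma adjusted p 0.00399). *Rplp1*, an acidic protein of the stalk's arms, had 1752, 2002 and 3093 normalized counts in control and 1738, 2148 and 2895 in laser. The groups covered the same range, and the log2 fold change was 0.01 ± 0.16 (limma adjusted p 0.969). Its partner *Rplp2* had 1246, 1529 and 2010 in control and 1625, 2071 and 2733 in laser, a log2 fold change of 0.40 ± 0.14 that did not pass the test (limma adjusted p 0.0896). DESeq2 gave *Rplp2* an adjusted p of 0.0326, and limma gave 0.0462 without control replicate 3.

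*Rpl5* and *Rpl11* bind the 5S ribosomal RNA and, outside the ribosome, the ubiquitin ligase MDM2. Both rose, *Rpl11* by 0.75 ± 0.16 (log2, SE; limma adjusted p 0.0053) without overlap, and *Rpl5* by 0.45 ± 0.12 (limma adjusted p 0.0197), where the highest control sample at 1375 normalized counts exceeded the lowest laser sample at 1319. Of the 7 proteins around the exit of the tunnel through which the new peptide leaves, 6 rose. *Rpl35* had the largest log2 fold change of them at 0.90 ± 0.16 (SE), and *Rpl23a* did not pass at 0.30 ± 0.22. *Rpl23a* shares 62.3% of its exon bases with other genes and reached only 143 to 252 normalized counts.

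In the 40S subunit, *Rpsa*, a protein of the back of the small subunit also known as the laminin receptor, rose most. It had 1272, 1445 and 1787 normalized counts (lowest, median and highest) in control and 2816, 3634 and 4379 in laser. The lowest laser sample was well above the highest control sample, and the log2 fold change of 1.31 ± 0.13 (SE), a fold of 2.48, had a limma adjusted p of 1.84e-05. *Rps2*, at the channel where mRNA enters, had 1454, 1615 and 2466 in control and 2644, 3833 and 4489 in laser, a log2 fold change of 1.06 ± 0.16. The groups did not overlap for this gene either.

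*Rps16*, which reaches towards the tRNA in the peptidyl site, had 506, 644 and 989.7 normalized counts in control and 1060, 1292 and 1518 in laser, a log2 fold change of 0.95 ± 0.17 (SE; limma adjusted p 0.00153). *Rps9*, among the highest genes per kilobase, had 4362, 4674 and 6023 in control and 6861, 7209 and 8618 in laser, a log2 fold change of 0.63 ± 0.09 (limma adjusted p 0.000481). *Rps14* had 2863, 3213 and 5136 in control and 4193, 5290 and 5972 in laser, a log2 fold change of 0.61 ± 0.14 (limma adjusted p 0.00916). *Rps9* separated the groups, whereas the highest control value of *Rps14*, in replicate 3, lay within the laser range. Of the 5 proteins of the mRNA entry channel and decoding site, 4 rose, and *Rps23* stood just outside the threshold at 0.47 ± 0.15 (limma adjusted p 0.0548).

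**Figure D3:**
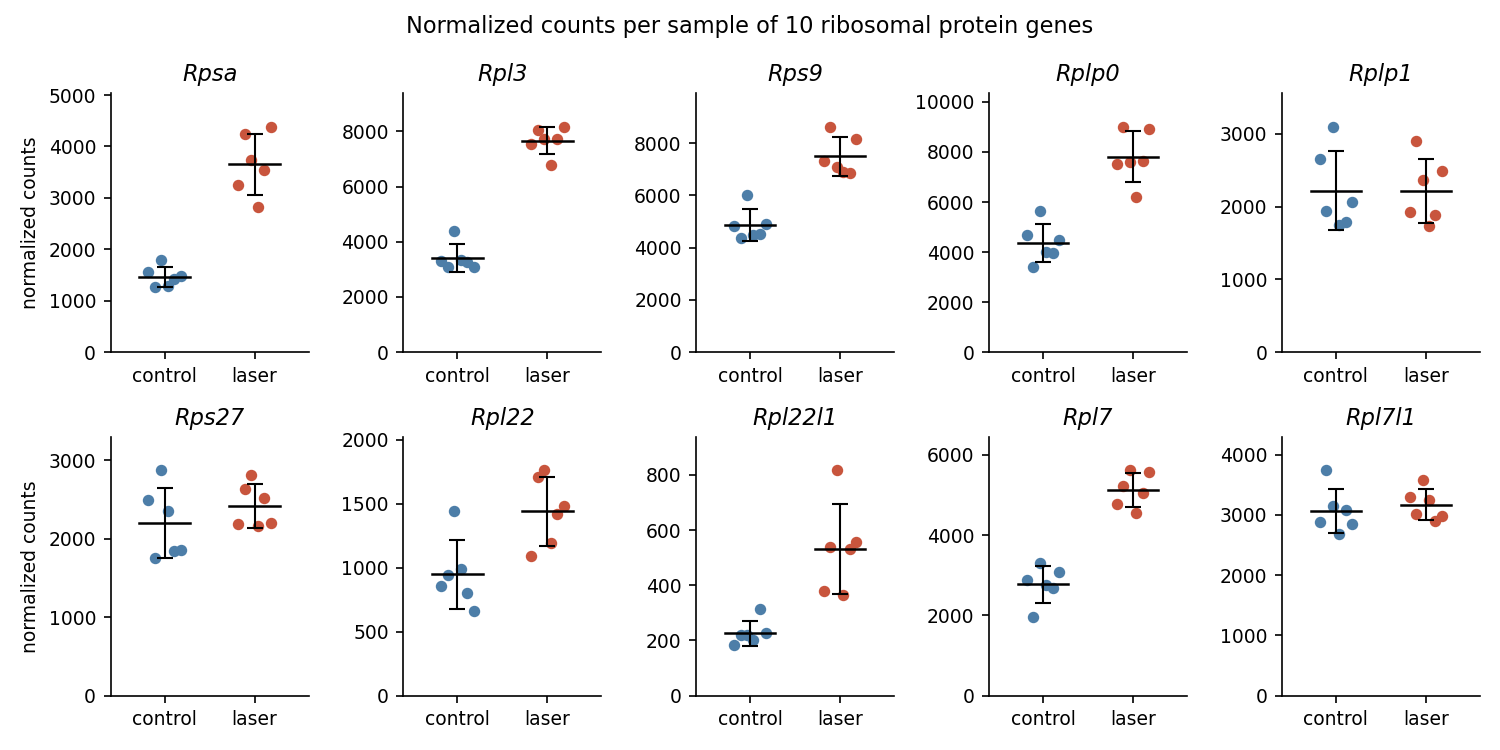
Normalized counts (vertical axes from 0) of 10 ribosomal protein genes in each control and laser sample (points, n = 6 each), with group means (lines) and SD (error bars). *Rpsa*, *Rpl3*, *Rps9*, *Rplp0*, *Rpl22l1* and *Rpl7* do not overlap between the groups, while *Rplp1*, *Rps27* and *Rpl7l1* cover the same range in both.

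Both groupings that cut across the subunits followed the family. Of the 9 listed genes whose haploinsufficiency causes Diamond-Blackfan anemia in people, 8 rose, with a median log2 fold change of 0.69. The ninth, *Rps10*, had 8.12 to 107 normalized counts in control and 6.69 to 30.4 in laser and did not pass, at -0.66 ± 0.70 (SE). Of its exon bases, 28.7% lie in exons of other genes, among them a readthrough gene, which leaves its level uncertain. The 4 members on the X chromosome, *Rps4x*, *Rpl10*, *Rpl36a* and *Rpl39*, all rose, by 0.67 ± 0.11, 0.75 ± 0.11, 0.70 ± 0.17 and 0.59 ± 0.17 (log2, SE). The call for *Rpl39* was lost without any 1 of 8 samples, control replicates 1, 2, 5 and 6 and laser replicates 2, 3, 5 and 6, at limma adjusted p of 0.0533 to 0.0659.

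Of the 77 core genes, 16 did not pass the test, and 14 of these had a mean of at least 100 in both groups, the exceptions being *Rps10* and *Rpl24*. *Rplp1* at 0.01 ± 0.16 and *Rps27* at 0.16 ± 0.13 (log2 fold change, SE) lay below or beside the median of all genes. *Rpl38*, *Rpl34*, *Rps23*, *Rps25*, *Rplp2*, *Rpl37*, *Rpl37a*, *Rps21*, *Rps29*, *Rpl27*, *Rpl23a* and *Rpl30* had log2 fold changes from 0.53 down to 0.27. *Rps27*, a zinc-binding protein of the 40S subunit, had 1755, 2106 and 2871 normalized counts in control and 2160, 2359 and 2818 in laser (limma adjusted p 0.532). *Rps29* had 1948, 2980 and 4164 in control and 2598, 3812 and 4690 in laser, a log2 fold change of 0.34 ± 0.17 (limma adjusted p 0.237). For both genes the groups overlapped over most of their range. *Rpl24* was barely counted, with 0 to 16.2 normalized counts in control and 0.739 to 8.36 in laser, and shares 47.0% of its exon bases with a gene model that overlaps it. At the edge of the threshold, *Rpl26* passed at a limma adjusted p of 0.0462 (log2 fold change 0.44) and *Rpl34* did not at 0.0507 (0.47).

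The paralogs did not move as 1 group: 1 of the 6, *Rpl22l1*, passed the test. *Rpl22l1*, the second copy of *Rpl22*, had 183, 220.1 and 313 normalized counts in control and 364, 535 and 816 in laser. There was no overlap, and the log2 fold change was 1.19 ± 0.22 (SE; limma adjusted p 0.00194). *Rpl22* had 665, 898 and 1447 in control and 1091, 1449 and 1760 in laser, a log2 fold change of 0.62 ± 0.18 (limma adjusted p 0.0325), with overlap through control replicate 3. This call was lost without any 1 of 9 samples, all but control replicate 3 and laser replicates 1 and 4, at limma adjusted p of 0.0557 to 0.0945. The log2 difference between the paralog and its partner rose from -2.04 ± 0.503 to -1.47 ± 0.218 (SD, n = 6 each), with an exact two-sided permutation p of 0.0368, or 0.0491 adjusted over the 4 pairs compared, and the ranges of the groups overlapped.

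*Rpl7l1*, a nucleolar relative of *Rpl7* that takes part in making the large subunit, had 2687, 2982 and 3739 normalized counts in control and 2897, 3133 and 3581 in laser, a log2 fold change of 0.05 ± 0.10 (SE; limma adjusted p 0.720). *Rpl7* itself had 1962, 2816 and 3297 in control and 4553, 5136 and 5609 in laser, a log2 fold change of 0.90 ± 0.12 (limma adjusted p 0.000166). The log2 difference of *Rpl7l1* from *Rpl7* was 0.15 ± 0.395 in control and -0.69 ± 0.165 in laser (SD), without overlap (exact permutation p 0.00216, adjusted 0.00866). This p is the smallest that 6 against 6 samples allow. The counts of both genes are not corrected for length or shared sequence, so only the change of the difference is read.

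*Rps27l*, a target of p53 related to *Rps27*, had 1151, 1453 and 1968 normalized counts in control and 1682, 1993 and 2715 in laser, a log2 fold change of 0.45 ± 0.15 (SE; limma adjusted p 0.0654, or 0.0313 without control replicate 3). Its log2 difference from *Rps27* rose from -0.55 ± 0.233 to -0.25 ± 0.130 (SD; exact permutation p 0.0173, adjusted 0.0346), with overlapping ranges. The tissue-restricted paralogs were near the floor. *Rpl39l*, known from testis, had 1.01 to 59.2 normalized counts in control and 0.739 to 107 in laser, and its difference from *Rpl39* gave an exact permutation p of 0.846. *Rpl3l*, known from heart and skeletal muscle, was at 0 in 5 of 6 control samples and at 33.8 in replicate 6, and reached 2.60 in laser. *Rpl10l*, known from testis, reached 23.6 in control and 6.92 in laser. No fold is given for these 3.

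The members moved together from sample to sample. Over the 77 members with a mean log2 level of at least 7, the SD over the 6 control samples had a median of 0.28 (log2) and over the 6 laser samples 0.20, beside 0.39 and 0.23 for protein-coding genes with a mean of at least 100. The correlation of a member with the median of the other core genes had a median of 0.86 in control and 0.89 in laser, as a description over 6 samples each that share library and depth. It was above 0.5 for 73 of 77 members in control and 74 of 77 in laser. In control, replicate 3 stood apart. The median deviation of core genes from their mean over the 12 samples was 0.08 (log2) there and -0.57 to -0.31 in the other control samples. The correlation was not computed without replicate 3 or for other genes. The members that followed the others least in control included both *Rpl22l1* (-0.41) and *Rpl7l1* (-0.22). *Rpl22l1* was highest among control samples in replicate 5, at 313 normalized counts, the control sample with the lowest share of reads on the family.

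The change was larger for longer transcripts. Over the 77 core genes, the log2 fold change went with the log10 length of the transcript at a Pearson r of 0.41 and a Spearman rho of 0.48, given as a description across genes, which are not independent replicates. Of the 37 core genes below the median length of 740 bases, 25 were called higher, with a median log2 fold change of 0.59, and of the 37 at or above it, 35, with a median of 0.76. A correction of each sample for transcript length and GC content brought these medians to 0.46 and 0.51, with 63 members still called higher. The relation to GC content was weak, at an r of 0.01. The library kit makes full-length cDNA before it is cut, and the part of transcript length or library size in the length trend was not tested.

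**Figure D4:**
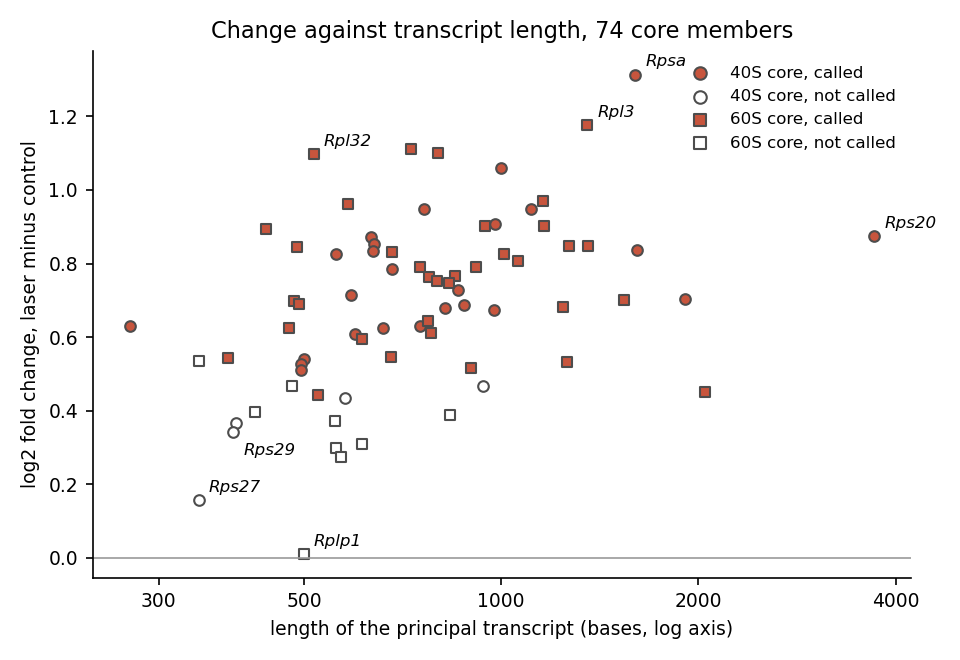
Log2 fold change (laser minus control, vertical axis) against the length of the principal transcript in bases (log axis) for the 74 core members with a control mean of at least 100; circles are 40S and squares 60S genes, filled where called at an adjusted p under 0.05. Most open symbols lie below 740 bases, and *Rpsa* and *Rpl3* lie at the upper right.

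Ribosomal protein genes have many processed pseudogenes, and reads that match several places may go uncounted. The median member had 57.4% of its 50-base windows, the read length, in transcripts of other genes, from 0%, as for *Rpl3l* and *Rpl39l*, to 98.7% for *Rps27*. The share of windows did not go with the change, at an r of -0.13 over the core genes. Of the 26 members with under 50% of windows and under 5% of exon bases in other genes, 17 rose, with a median log2 fold change of 0.63. The 874 pseudogenes in the table that share a window with a member held 0.0109% to 0.0157% of reads in control and 0.0132% to 0.0176% in laser.

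Genes around the ribosome were counted in the same fit, in which 8.29% of all genes were called higher and 4.57% lower. Of 26 other genes known to carry a TOP motif, 19 rose and 0 fell, with a median log2 fold change of 0.76. Besides *Vim*, an intermediate filament gene (3.79 ± 0.41, SE), the largest called rises were *Pabpc1*, the cytosolic poly(A)-binding protein (1.35 ± 0.10), *Hnrnpa1* (1.21 ± 0.24) and *Nap1l1*, a histone chaperone (1.13 ± 0.16). Of 12 elongation and termination genes, 6 rose and 0 fell, led by *Eef1g* (1.07 ± 0.17), *Eef2*, the translocase (0.97 ± 0.08), *Eif5a* (0.80 ± 0.10) and *Eef1b2* (0.78 ± 0.17). Some of these genes stand in both lists.

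Of 39 initiation genes, 17 rose and 2 fell. *Pabpc1*, *Eif4g1*, the scaffold of the cap-binding complex (0.97 ± 0.13, SE), *Eif4b* (0.94 ± 0.18) and *Eif1ax* (0.81 ± 0.24) rose most, and *Eif3j1* (-0.69 ± 0.18) and *Eif1*, which guards the choice of the start codon (-0.30 ± 0.09; edgeR adjusted p 0.0850), fell by limma. Among ribosomal proteins outside the rule, *Rack1* (0.90 ± 0.13) and *Fau* (0.55 ± 0.13) rose, and *Rpl36al* (-0.21 ± 0.21) did not pass.

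Of 53 biogenesis genes, which serve the assembly of ribosomes, 4 rose and 7 fell, with a median log2 fold change of -0.05. The 4 are a share of 7.55%, near that of all genes. DESeq2 called 11 lower, limma with the replicate block 4, and limma with the correction for GC content and length 19, with 2 higher. *Npm1* (0.95 ± 0.11, SE), *Nop53* (0.75 ± 0.13), *Ncl* (0.71 ± 0.10) and *Rrp1* (0.45 ± 0.11) rose. *Sbds*, which frees the new 60S subunit for use, had 1275, 1715 and 2282 normalized counts in control and 821, 996 and 1188 in laser, with no overlap, and fell by 0.76 on the log2 scale (SE 0.15, limma adjusted p 0.003). *Rrp9* (-0.66 ± 0.18), *Rpf1* (-0.62 ± 0.12) and *Gnl3* (-0.58 ± 0.14) fell too. Of 15 genes of RNA polymerase I and its factors, 0 rose and 1, *Twistnb* (-0.82 ± 0.15), fell. In this list limma had 1 gene higher and 3 lower at an unadjusted p under 0.05, edgeR called 0 higher and 1 lower and DESeq2 0 higher and 3 lower.

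Of 28 genes of mTORC1, LARP1 and the MYC network, 3 rose and 1 fell. The 3 are a share of 10.7%, near the 8.29% of all genes, and 4.57% of all genes fell. *Mxd3*, a partner of MAX that opposes MYC, was at 0 at the median of control, where 1 sample reached 67.6 normalized counts, and had 48.8, 156 and 175 in laser (limma adjusted p 0.00641, edgeR 0.0855). *Rps6kb2*, a kinase of the ribosomal protein S6 (0.90 ± 0.26, SE; edgeR adjusted p 0.0875), and *Eif4ebp2* (0.44 ± 0.13) rose by limma. *Rptor*, the scaffold of mTORC1, fell by 0.56 on the log2 scale (SE 0.13, limma adjusted p 0.0107). Of 17 quality control genes, *Rnf10* (0.84 ± 0.15) rose, a share of 5.88%, and *Trp53* (-0.75 ± 0.12), *Usp10* (-0.54 ± 0.16) and *Nemf* (-0.50 ± 0.15) fell. The ribosome of mitochondria, whose proteins are encoded by a separate family of nuclear genes, moved little. Of 78 such genes 4 rose (5.13%) and 1 fell, with a median log2 fold change of 0.08. Their share of reads was 0.206% ± 0.0195 in control and 0.220% ± 0.0167 in laser (SD, n = 6 each). With the correction for GC content and length, the calls higher and lower were 8 and 9 for initiation, 6 and 2 for elongation and termination, 18 and 0 for the other TOP genes, 0 and 7 for RNA polymerase I, 1 and 3 for mTORC1, LARP1 and MYC and 0 and 6 for quality control. Over all genes in that fit they were 1352 and 3399. The fit held only genes with a known GC content and a mean of at least 10, and 13614 of the 27299 genes had such a mean. These lists are set side by side, and the difference between them and the cytosolic family was not tested.

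**Figure D5:**
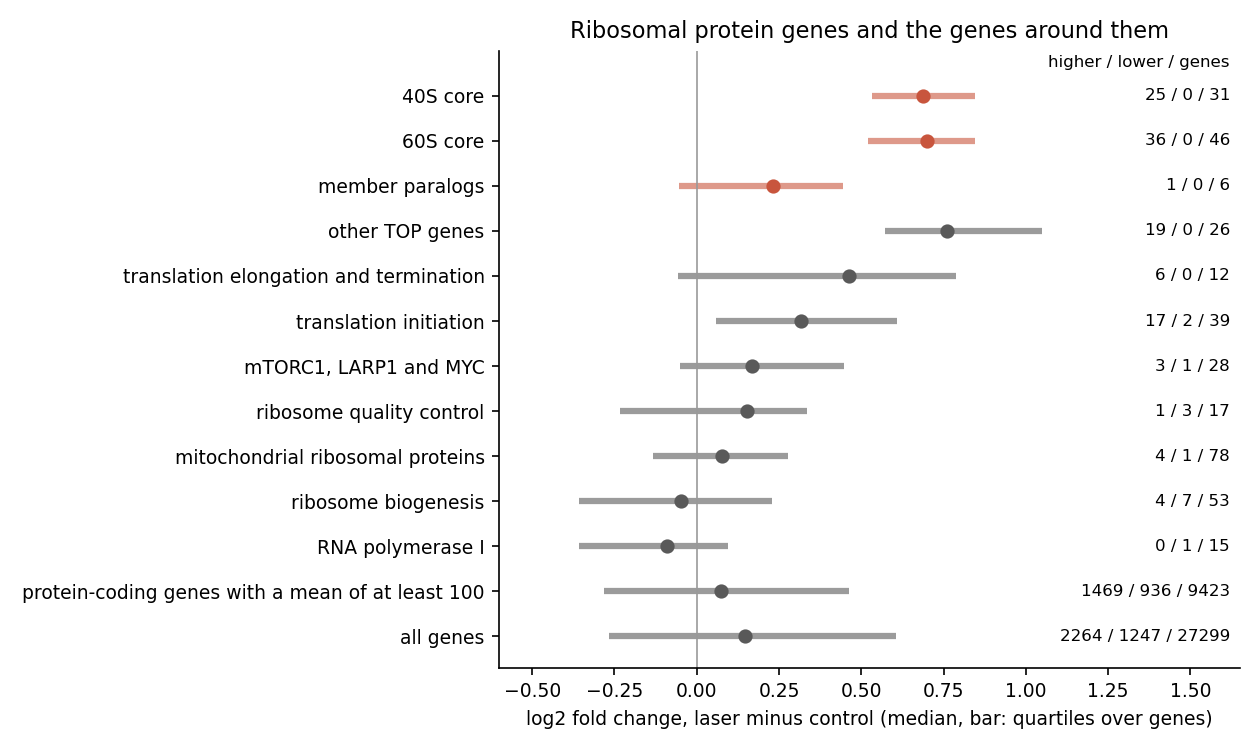
Median log2 fold change (laser minus control, points) with quartiles over genes (bars) of the ribosomal protein genes and of the gene lists around them, with the number of genes called higher, called lower and in the table at the right. The 40S and 60S genes and the other TOP genes lie between 0.69 and 0.76, while biogenesis, RNA polymerase I and mitochondrial ribosomal proteins lie near 0.

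Monocyte markers moved with the groups and, within the laser group, broadly with the family. Of 14 monocyte markers 7 were higher and 0 lower in laser, with a summed level of 393 to 1234 normalized counts in control and 5218 to 52548 in laser, and 5 of them were at 0 in at least 4 control samples. Of these, *Ly6c2*, the gene for the Ly6C antigen that the gate excludes, was at 0 in all control samples and at 1.7 to 25.1 in laser. Most of the laser sum was *Fn1*, which the paper lists among the genes most increased in its CNV-associated microglia. Without *Fn1* the sums were 386 to 1228 in control and 1455 to 5158 in laser. Laser replicates 1 and 4, with the lowest sums (5218 and 5866), had the lowest ribosomal protein shares (0.907% and 0.874%). Replicates 3, 6 and 2, with sums of 52548, 37898 and 19576, had shares of 1.14%, 1.10% and 1.12%, and replicate 5, with 13298, had 0.981%. Without *Fn1*, laser replicates 1 and 4 were again lowest (1455 and 1702), and replicates 3 and 6 highest (5158 and 4458). Replicate 5 (3403) then lay above replicate 2 (2990), although its share was lower. The microglia sum ran the other way, from 1290105 in laser replicate 1 and 1232248 in replicate 4 down to 880510 in replicate 3, and 9 of 15 microglia markers were lower in laser. The part of the monocyte markers in the ribosomal protein levels was not tested.

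Of 8 Müller glia markers 3 were higher and 1 lower in laser, with a summed level of 19454 to 41159 normalized counts in control and 57428 to 99479 in laser. Most of that sum was *Apoe*, which microglia express as well. Of 9 retinal neuron markers 2 were higher and 1 lower, and the sum was 1846 to 2741 in control and 1053 to 1876 in laser. Photoreceptor markers summed to 672 to 13517 in laser and 0 of 14 were called by limma, neutrophil markers summed to at most 22 in any sample, and erythroid markers to at most 15. T and B cell markers summed to 12471 to 14925 in control and 10148 to 14883 in laser, with 0 of 6 called. Endothelial markers summed to 500 to 990 and 457 to 965, with 1 of 5 higher and 1 lower. Markers of the retinal pigment epithelium summed to 44 to 260 and 72 to 304, with 0 of 6 called. The share of reads on mitochondrial genes was 0.407% ± 0.0555 in control and 0.576% ± 0.109 in laser (SD, n = 6 each). The part of these values in the ribosomal protein levels was not tested.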

How the data were processed

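RNA of sorted retinal microglia was amplified and sequenced by the authors as single-end reads of 50 bases. The submitters' processing notes name STAR 2.7.2b, featureCounts 1.6.4, DESeq2 1.22.2 and GRCm38.p6. The deposited signal is normalized: counts per gene, each divided by the DESeq2 size factor of its sample. All values were whole multiples of 1 read (tolerance 1e-06), so reads were recovered for edgeR 4.0.16 and DESeq2 1.42.0. The table's columns of the authors' group means, log2 fold changes and adjusted p-values were not used. Library totals of 10963178 to 29523018 counted reads set the precision, and 3 reads correspond to 2.22 to 5.96 normalized counts.

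log2(normalized counts + 1) was fitted over 27299 genes by limma 3.58.1 with a mean-variance trend, 6 laser against 6 control samples, without a covariate, with Benjamini-Hochberg adjustment. A gene was called at an adjusted p under 0.05. Fold changes of low genes on this scale are uncertain and can be smaller or larger than the change of the means. *Rpl24* had -0.03 with means of 7.23 normalized counts in control and 4.15 in laser. *Taf1a*, of the RNA polymerase I list, had 2.54 with means of 53.0 and 110. Exact permutation tests were two-sided. The steps were tested on simulated data. The limit on false calls was set there for limma, edgeR and limma voom, and not for DESeq2. Lengths, exon overlaps and 50-base windows came from GENCODE M21, in which 27238 genes matched, and starts from RefSeq; 20 members had no start there. Levels per kilobase used the shortest basic transcript of the best principal class. Protein sequences were not used here.

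Named members were the 12 largest rises among called genes, the 5 highest per kilobase in control, the 3 core genes with the smallest change, detected paralogs with their partners, the stalk, 5S and X-linked lists and the extremes of shared windows. Up to 4 genes per direction were named in other lists. Other members were named after their values were seen, and some listed genes are not reported here. The members and lists were chosen with earlier results of these data known. Alternatives were other scalings, pseudocounts, filters, tools, thinning, a length and GC correction, a replicate block and leaving out each sample. The length and GC correction was fitted only to genes with a known GC content and a mean of at least 10.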

Additional observations from a re-analysis of the deposited data

Results flagged for a closer look

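The named members were examined for samples that stood apart from the rest of their group, in 74 groups of 6 samples, and 8 were found. Chance marks about 1 in 20 such groups. Of the 8, 5 were in control replicate 3, the control sample with the highest share of reads on the family. There *Rpl3* had 4401 normalized counts beside 3068 to 3337 in the other control samples, *Rpl29* 816 beside 532 to 612, *Rps9* 6023 beside 4362 to 4899, *Rps14* 5136 beside 2863 to 3471 and *Rpl12* 1342 beside 853 to 993. In control replicate 5, *Rpl22l1* had 313 normalized counts beside 183 to 226. *Rpl3l* had 33.8 in control replicate 6 and 0 in the other 5. *Rpl10l* had 6.92 in laser replicate 4 and at most 1.79 in the other laser samples.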

How the results depend on the processing

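The number of ribosomal protein genes called higher was 62 and lay between 53 and 68 under other scalings, pseudocounts, filters, tools and corrections, and 0 were called lower under each of them. Restricting the members to the 26 with few shared windows and exons, an alternative chosen after seeing the data, left 17 calls. This is a share of 65.4%, beside 74.7% of all 83 members. The 26 include the paralogs *Rpl3l*, *Rpl7l1*, *Rpl10l*, *Rpl39l* and *Rps27l*, none of which was called. The median log2 fold change was 0.69, and it was 0.51 with the GC content and length correction, 0.61 with upper quartile factors and 0.61 with the median of abundant protein-coding genes set to 0. Leaving out each sample gave 54 to 70 calls higher, 0 to 0 lower, a median of 0.64 to 0.77 and a difference in the share of reads of 0.375 to 0.436 percentage points, beside 0.400. In the other lists together, 40 genes were called higher and 14 lower. With the GC content and length correction these were 26 and 46, and 22 and 44 with the replicate block added. The count lower was 26 by DESeq2, 9 by limma without trend and 8 with the replicate block alone. The cause was not tested. Without single samples it was 32 to 41 higher and 10 to 15 lower. Samples with the same replicate number did not deviate together (correlations of -0.0526 to 0.0707 for the pairs of equal number), so no pairing by number was seen. Such correlations cannot exclude a batch shared by samples of equal number. With the number as a block, 60 members were called higher. Of the 62 members, 12 were not called under at least 1 alternative, and 8 others gained a call under at least 1. Among the named genes that were followed singly, *Rpl13a*, *Rpl22*, *Rpl39* and *Rpl5* lost their call under some settings, all with the same direction, and *Rps27l* and *Rplp2* gained one. The shallowest control sample had 10963178 reads; thinning all samples to that depth left 63 calls.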
